A study of Mus musculus with 12 samples.

Results

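The genes described here are 9 cytosolic glutathione transferases of the mouse kidney, found by symbol among the 22053 rows of the deposited expression table. They are 5 of the mu class (Gstm1, Gstm2, Gstm4, Gstm5 and Gstm6), 1 of the pi class (Gstp1), 2 of the theta class (Gstt1 and Gstt2) and 1 of the omega class (Gsto1). Whole kidney RNA was sequenced from 12 wild-type C57BL/6 mice, 4 in each of 3 groups. CKD mice ate a diet with 0.2% adenine from 8 to 16 weeks of age and received weekly i.p. PBS, CKD+Fe mice ate the same diet and received i.p. iron dextran at 0.5 g/kg each week, and control mice ate the diet without adenine and received PBS. Every mouse is named by the number in its label, and each gave 1 library.

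Glutathione transferases join the thiol of glutathione to electrophilic compounds, which makes these compounds more soluble and ready for export. The conjugates are then trimmed to mercapturic acids, largely at the brush border of the proximal tubule, and leave in the urine. The mu and pi enzymes share a catalytic tyrosine, the theta enzymes use a serine, and the omega enzymes use a cysteine, with which they reduce dehydroascorbate and open mixed disulfides. Transcription of many mu and pi genes is driven by Nrf2, the factor that binds antioxidant response elements in their promoters.

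Expression is given in FPKM as the authors deposited it, that is, as fragments per kilobase of a transcript and relative to the mapped reads of the mouse. Differences between groups are log2 fold changes of FPKM + 1 from limma, fitted over the 13148 genes that reached 1 FPKM in 4 or more mice, which include all 9 transferases. Called genes are those whose adjusted p (Benjamini-Hochberg, over all these genes) was under 0.05. In whole tissue, fewer cells of a type and less RNA per cell cannot be told apart.

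The mu genes lie side by side on chromosome 3 and have similar sequences, which matters because the reads were 50 bases long. In GRCm38, Gstm1 (ENSMUSG00000058135) spans 108012255 to 108017973, Gstm2 (ENSMUSG00000040562) 107981702 to 107986453, Gstm4 (ENSMUSG00000027890) 108040408 to 108044894 and Gstm6 (ENSMUSG00000068762) 107938847 to 107943749, all on the minus strand. Gstm5 (ENSMUSG00000004032) spans 107895821 to 107898686 on the plus strand. Over their coding bases Gstm1 was 86.0% identical to Gstm2, 82.8% to Gstm6, 80.2% to Gstm4 and 71.4% to Gstm5. The longest coding stretch common to Gstm1 and Gstm2 was 60 bases. It lies in exon 4 of both genes, at chr3:108016526-108016585 for Gstm1 and chr3:107985254-107985313 for Gstm2, and a read of 50 bases within it fits both. It is printed here from the GENCODE M21 transcripts, with the aligned bases of the other 3 mu genes below, where capitals mark a base that differs from Gstm1.
Gstm1: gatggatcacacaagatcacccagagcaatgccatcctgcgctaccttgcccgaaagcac
Gstm2: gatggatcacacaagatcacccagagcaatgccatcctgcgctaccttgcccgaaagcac
Gstm4: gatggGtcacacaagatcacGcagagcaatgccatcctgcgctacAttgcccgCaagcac
Gstm6: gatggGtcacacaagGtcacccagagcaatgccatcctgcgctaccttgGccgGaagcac
Gstm5: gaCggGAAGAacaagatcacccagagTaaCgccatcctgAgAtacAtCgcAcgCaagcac
Gstm4 and Gstm6 each differed from Gstm1 at 4 of these 60 bases, and Gstm5 at 14.

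Over the whole transcript, 23.1% of the 50-base stretches of Gstm1 (287 of 1240) also occurred in a transcript of another gene, most of them in the pseudogene Gstm2-ps1. The share was 9.36% for Gstm2 and 11.5% for Gstm6, and it was 0 for Gstm4, Gstm5, Gstt1, Gstt2 and Gsto1. Gstp1 (ENSMUSG00000060803, chromosome 19 from 4035407 to 4037921, minus strand) had the highest share, 62.3% (481 of 772), all of it in common with its neighbour Gstp2. Gstp2 was listed at 0.151 to 1.55 FPKM across the 12 mice, against 66.0 to 166 FPKM for Gstp1. How the quantifier divided reads among these copies was not tested, so the values of Gstm1, Gstm2, Gstm6 and Gstp1 are less certain than those of the other 5 genes.

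Promoters are shown for 3 genes, Gstm1 and Gstp1, which had the largest log2 fold changes between CKD+Fe and CKD mice, and Gsto1, which rose most in CKD. The sequences are the 250 bases before a start of the gene in RefSeq (GRCm38.p6), read along the strand of the gene. Capitals mark the letters TGACNNNGC or TGAGNNNGC, the core of the antioxidant response element, on either strand, or TATAAA on the strand of the gene.
Gstm1 (chr3:108017819-108018068, minus strand): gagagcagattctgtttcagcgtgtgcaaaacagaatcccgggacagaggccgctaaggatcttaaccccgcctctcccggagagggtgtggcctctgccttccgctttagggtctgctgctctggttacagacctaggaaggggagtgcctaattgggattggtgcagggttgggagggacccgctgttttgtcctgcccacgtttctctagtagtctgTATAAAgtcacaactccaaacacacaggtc
Gstp1 (chr19:4037913-4038162, minus strand): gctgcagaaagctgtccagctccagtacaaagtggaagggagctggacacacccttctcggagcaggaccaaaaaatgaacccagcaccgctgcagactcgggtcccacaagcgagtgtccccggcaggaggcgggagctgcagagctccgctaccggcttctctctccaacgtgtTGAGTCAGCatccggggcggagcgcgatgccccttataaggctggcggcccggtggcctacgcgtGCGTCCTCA
Gsto1 (chr19:47854723-47854972, plus strand): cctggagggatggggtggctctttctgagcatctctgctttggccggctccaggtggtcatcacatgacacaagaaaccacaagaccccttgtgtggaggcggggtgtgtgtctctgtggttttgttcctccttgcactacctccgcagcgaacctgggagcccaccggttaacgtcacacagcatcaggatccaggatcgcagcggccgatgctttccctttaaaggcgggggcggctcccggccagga
In Gstp1 the letters TGAGTCAGC lay 74 bases before the start and a match on the opposite strand 9 bases before it. RefSeq holds 2 starts of Gstm1. The printed window belongs to the start 155 bases inside the GENCODE transcript, and it held TATAAA 30 bases before that start. The window of the other start, at the first base of that transcript, held none of these letters. The starts used for Gstp1 and Gsto1 lay 73 and 3 bases inside their GENCODE transcripts. Of the other members with a promoter in RefSeq, Gstm5 held both core sequences and Gstt1 held TGAGAGAGC 89 bases before its start, while Gstm2, Gstm4, Gstm6 and Gsto1 held none of these letters. Either core was present in 23.0% of the 32851 promoter windows of the genome, and TATAAA in 7.59%. A match describes the letters and does not show that a factor binds there.

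Gstm1 was the most abundant of the 9 transferases in every mouse. In control mice it was followed by Gstm5, Gstt1, Gstt2, Gstp1 and Gstm2, each of which overlapped the next in this order, and then by Gsto1, Gstm4 and Gstm6. In control mice the 9 genes summed to 1586 ± 528 FPKM, in CKD mice to 1056 ± 140.2 FPKM and in CKD+Fe mice to 1488 ± 70.7 FPKM (SD, n = 4). Of this sum Gstm1 made up 42.6% ± 6.99 in control mice, 29.3% ± 3.22 in CKD mice and 43.7% ± 4.83 in CKD+Fe mice (SD, n = 4). Gsto1 held 2.87% ± 0.504 in control mice and 14.7% ± 4.35 in CKD mice, where its level overlapped that of Gstt1 and lay above that of Gstt2 in every mouse. In CKD+Fe mice its share was 8.14% ± 0.529.

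**Figure D1:**
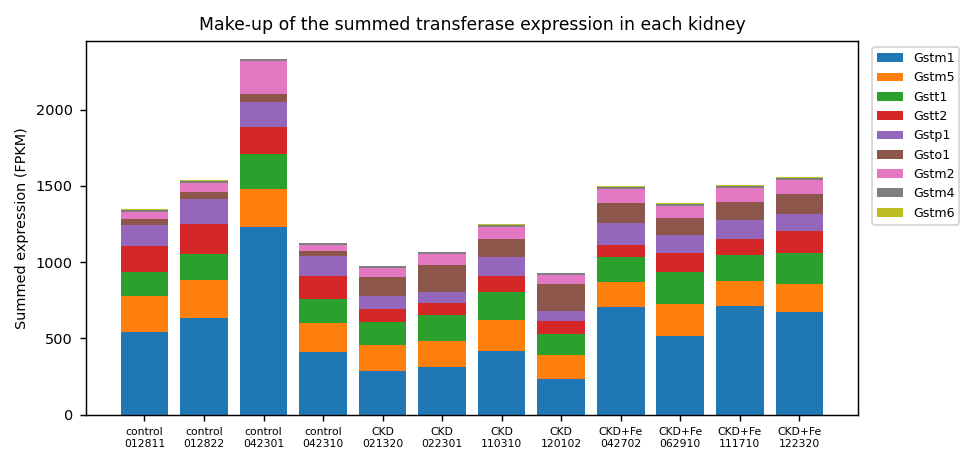
Summed expression (FPKM, y axis) of the 9 transferases in each of the 12 kidneys (x axis), with the bar of each mouse divided by gene. Gstm1 is the largest segment in every mouse, and the Gsto1 segment is larger in the 8 adenine-fed mice than in the 4 control mice.

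Some facts of the whole series bear on these values. The FPKM of all genes summed to between 607951 and 707843 in control, 503438 and 603556 in CKD and 536139 and 572074 in CKD+Fe mice. The deposited values do not give the depth in reads, so counting error is unknown. Most genes were higher in the adenine-fed mice, with a median log2 fold change over all genes of 0.50 in CKD and 0.50 in CKD+Fe against control mice, and of 0.00 between CKD+Fe and CKD mice. After median-of-ratios rescaling the first became 0.01. Markers of cell types moved with the diet. Of 19 proximal tubule genes 18 were lower in CKD than in control mice, and their expression summed to between 77262 and 100787 FPKM in control mice, 2529 and 10187 FPKM in CKD mice, and 3776 and 14551 FPKM in CKD+Fe mice. All 12 macrophage genes were higher in CKD mice, with sums of 128 to 265, 1859 to 3876 and 1730 to 3846 FPKM, and so were all 6 genes of tubule injury, with sums of 436 to 713, 10749 to 19518 and 7765 to 13915 FPKM in the same order. In control mice the proximal tubule sum was mostly Kap, with a mean of 73017.5 FPKM there and 3585 FPKM in CKD mice. Kap fell by more log2 units (-4.84) than the median gene of that list (-2.21), so the sum overstates the fall of the list. The tubule injury sum was mostly Spp1, with means of 521, 15126 and 9932 FPKM in control, CKD and CKD+Fe mice. Spp1 rose by 4.84 log2 units in CKD, near the median of 4.72 for the injury genes. No gene of these 3 lists was at 0 in any mouse. The part of these shifts in the results below was not tested.

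CKD was compared with control to see what the adenine diet did to the transferases. Of the 9 genes, Gstm1, Gstm5, Gstp1 and Gstt2 fell, Gstm6 and Gsto1 rose, and Gstm2, Gstm4 and Gstt1 did not pass the test. Among all genes tested 13.3% were called lower and 54.6% higher. Gstp1 and Gstt2 were lower, and Gstm6 and Gsto1 higher, in every CKD mouse than in every control mouse, as were 10.5% and 44.6% of all genes. The median log2 fold change of the 9 was -0.31, beside 0.50 for all genes, and 2 of the 9 lay above the median of all genes. After median-of-ratios rescaling these medians were -0.85 and 0.01, with 2 of 9 above, and after quantile normalization they were 0.01 and -0.03, with 5 of 9 above. Median-of-ratios rescaling gave larger falls for Gstm1 (-1.65), Gstp1 (-1.42) and Gstt2 (-1.56) than the values as deposited below. Other alternatives gave smaller falls, down to -0.76 for Gstm1, -0.64 for Gstp1 and -0.73 for Gstt2.

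**Figure D2:**
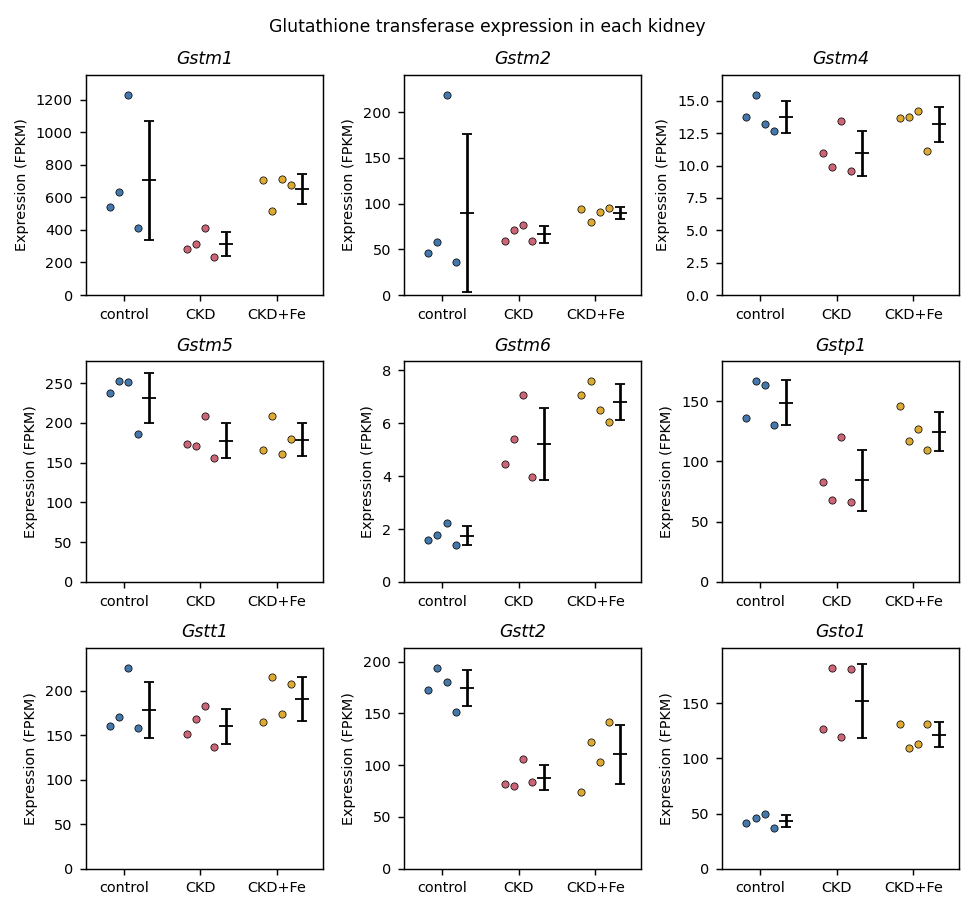
Expression (FPKM, y axis from 0) of each transferase in control, CKD and CKD+Fe mice (x axis). Each point is 1 mouse, and the bar beside each group is its mean ± SD (n = 4). Gsto1 and Gstm6 are higher in every adenine-fed mouse than in every control mouse, Gstt2 is lower, and 1 control mouse stands far above the rest for Gstm1 and Gstm2.

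Gstm1, the chief mu enzyme of this tissue, was at 539, 633, 1232 and 413 FPKM in control mice 012811, 012822, 042301 and 042310. It was at 286, 314, 415 and 236 FPKM in CKD mice 021320, 022301, 110310 and 120102, so that only the highest CKD mouse reached the lowest control mouse. The mean was 704 ± 363 FPKM in control and 313 ± 75.3 FPKM in CKD mice (SD, n = 4), a log2 fold change of -1.07 ± 0.28 (standard error; adjusted p = 0.00421, limma). The exact two-sided permutation p was 0.0571, where 4 mice against 4 cannot go below 0.0286. The call held in all 17 alternative fits, with log2 fold changes from -1.65 to -0.76, the latter without control mouse 042301.

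Gstp1, the pi enzyme, which also binds the stress kinase JNK, was at 136, 166, 164 and 129.8 FPKM in control mice and at 82.8, 67.9, 119.9 and 66.0 FPKM in CKD mice, in the order of mice given above. The groups did not overlap. Its mean was 149 ± 18.8 FPKM in control and 84.2 ± 25.0 FPKM in CKD mice (SD, n = 4), a log2 fold change of -0.85 (standard error 0.18, adjusted p = 0.00104, limma; exact permutation p = 0.0286).

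The theta genes Gstt1 and Gstt2 are neighbours on the minus strand of chromosome 10, Gstt1 (ENSMUSG00000001663) from 75783813 to 75798584 and Gstt2 (ENSMUSG00000033318) from 75831845 to 75834881. They were expressed at similar levels in control mice and parted in CKD. Gstt2, whose human counterpart cleaves sulfate esters, was at 173, 194, 180.3 and 152 FPKM in control mice and at 82.2, 80.0, 106 and 83.6 FPKM in CKD mice, with no overlap. Gstt1, which acts on halogenated methanes, was at 160.2, 171, 225 and 158 FPKM in control and at 151, 168, 183 and 137 FPKM in CKD mice, and these groups overlapped. The log2 fold change was -0.98 for Gstt2 (standard error 0.18, adjusted p = 0.00031, limma) and -0.15 for Gstt1 (95% interval -0.48 to 0.17, adjusted p = 0.388). The value of Gstt1 depended on the scaling, at -0.73 after median-of-ratios rescaling (adjusted p = 0.00175) and at 0.21 with quantile normalization (adjusted p = 0.159). A ratio within a mouse does not depend on a scale factor of that mouse. The ratio of Gstt1 to Gstt2 ran from 0.881 to 1.25 in control mice and from 1.64 to 2.097 in CKD mice, without overlap (exact two-sided permutation p = 0.0286). The ratio of Gstt1 to 54.8% of the other genes also separated these groups.

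Gsto1 (ENSMUSG00000025068), the omega enzyme, lies on the plus strand of chromosome 19 from 47854970 to 47864790 and went the other way. It was at 41.1, 46.1, 49.8 and 36.9 FPKM in control mice and at 127, 182, 119 and 181 FPKM in CKD mice, so that the lowest CKD mouse was far above the highest control mouse. On the log2 scale it rose by 1.76 (standard error 0.16, adjusted p = 1.25e-06, limma), or 3.50-fold between the means of FPKM. Gsto1 lay above 93.6% of the genes tested by log2 fold change, and it was called under all 17 alternatives, with a range from 1.20 to 1.94. It was thus higher under every scaling tried.

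Gstm6, a mu gene of low expression, was at 1.58, 1.77, 2.23 and 1.41 FPKM in control mice and at 4.45, 5.40, 7.06 and 3.95 FPKM in CKD mice. The groups did not overlap, and the mean rose 2.98-fold in FPKM. On the scale of FPKM + 1, which understates the change of low genes, the rise was 1.16 in log2 units (standard error 0.16, adjusted p = 4.18e-05, limma). With quantile normalization it was 0.32 (adjusted p = 0.16), and the call was lost.

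The remaining mu genes had smaller log2 fold changes. Gstm5 was at 237, 252, 251 and 186 FPKM in control and at 174, 171, 208 and 156 FPKM in CKD mice, which overlap. Its log2 fold change of -0.38 (standard error 0.14, adjusted p = 0.0296, limma) passed the threshold, but it did not in 6 of 8 fits with a single mouse removed (adjusted p up to 0.0849), and the scalings moved it in opposite directions, to -0.96 after median-of-ratios rescaling (adjusted p = 0.000185) and to 0.02 with quantile normalization (adjusted p = 0.869). Those 6 fits were without control mice 012811, 012822 and 042301 or CKD mice 021320, 022301 and 120102. Gstm4, at 12.6 to 15.5 FPKM in control and 9.58 to 13.4 FPKM in CKD mice, had a log2 fold change of -0.31 with an adjusted p of 0.0528, and without CKD mouse 110310 it was -0.41 (adjusted p = 0.00999). Gstm4 was called lower under 7 alternatives, at -0.85 after median-of-ratios rescaling (adjusted p = 0.000212) and at -0.84 with quantile normalization (adjusted p = 0.000452).

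Gstm2 turned on a single animal. It was at 46.0, 58.5, 219 and 36.5 FPKM in control mice 012811, 012822, 042301 and 042310, and at 58.6, 71.7, 76.7 and 59.1 FPKM in CKD mice. Apart from mouse 042301 every control mouse was below every CKD mouse. With all mice the log2 fold change was -0.05 (95% interval -0.90 to 0.81, adjusted p = 0.92, limma), and without mouse 042301 it was 0.51 (adjusted p = 0.0136). In that mouse Gstm1 was also the highest of all 12 mice, and Gstt1 (225 FPKM), Gstm6 (2.23 FPKM) and Gsto1 (49.8 FPKM) were the highest among control mice, whereas Gstm4, Gstm5, Gstp1 and Gstt2 lay within the range of the other control mice. Its summed expression of 8 urothelial genes was 141 FPKM against 1.89 to 52.9 FPKM in the other control mice, and that of 6 collecting duct genes was 1992 FPKM against 444 to 618 FPKM. Its proximal tubule sum of 100787 FPKM and its macrophage sum of 265 FPKM were also the highest among control mice. That proximal tubule sum was mostly Kap. Kap held 12.7% of all FPKM in this mouse and 10.6% to 10.7% in the other control mice. The sum therefore does not rank the rest of its list. The part of these cells in the Gstm1 and Gstm2 values was not tested.

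In the control and CKD groups some mice lay at an end of the range for most of the transferases. CKD mouse 110310 was the highest of its group for 8 of the 9 genes and the lowest for Gsto1, and it had the largest proximal tubule sum (10187 FPKM) and the largest total FPKM (603556) of the CKD mice. CKD mouse 120102 was the lowest for 6 of the 9. Control mouse 042310 was the lowest of its group for all 9, Gsto1 included, and had the smallest total (607951) and the smallest proximal tubule sum (77262 FPKM) of the control mice, and mouse 042301 was the highest for 5 of the 9. Kap made up most of both proximal tubule sums, at 1.25% of all FPKM in mouse 110310 and 10.6% in mouse 042310. Neither sum ranks the rest of that list. No mouse of the CKD+Fe group was highest for more than 3 of the 9 genes.

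CKD+Fe was compared with CKD to see whether iron dextran changed the transferases in mice on the adenine diet. It shares the CKD mice with the comparison above. Gstm1 was 2.09-fold and Gstp1 1.48-fold higher in mean FPKM after iron, and 8 of the 9 genes had a positive log2 fold change, all but Gsto1. None passed an adjusted p of 0.05 with limma in either direction. Only 1 gene of the 13148 did (0.00761% higher and 0% lower), and at an unadjusted p under 0.05, 3.28% were higher and 2.73% lower. At that unadjusted level 2 of the 9 transferases, Gstm1 and Gstp1, were higher and 0 were lower. The median log2 fold change of the 9 genes was 0.30, beside 0.00 for all genes, of which 49.9% were positive. After median-of-ratios rescaling the median of the 9 was 0.30, and with quantile normalization it was 0.29.

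Gstm1 was at 706, 514, 715 and 675 FPKM in CKD+Fe mice 042702, 062910, 111710 and 122320. Each was above the highest CKD mouse, which had 415 FPKM. The log2 fold change was 1.08 (standard error 0.28, 95% interval 0.47 to 1.68, unadjusted p = 0.00196, adjusted p = 0.4, limma), and only 26 of the 13148 genes had a larger one. Leaving out single mice moved it between 0.95 and 1.22, and it was not called in any of these 8 fits. With array weights, which weigh each mouse by the scatter of its library, the adjusted p was 0.0208, and without control mouse 042301, CKD mouse 110310 and CKD+Fe mouse 042702 together it was 0.0344. Over all alternatives it ran from 0.0208 to 1.0.

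Gstp1 was at 146, 117, 127 and 109 FPKM in CKD+Fe mice, and 3 of the 4 CKD mice lay below the lowest of these. CKD mouse 110310, at 119.9 FPKM, lay among them. The log2 fold change was 0.60 (standard error 0.18, unadjusted p = 0.00561, adjusted p = 0.479, limma; exact permutation p = 0.0857). With array weights it was 0.68 (adjusted p = 0.0396) and without the 3 mice 0.70 (adjusted p = 0.048). For Gstm1 and Gstp1 alike these settings are not separate checks. The array weights were lowest for the same 3 mice, at 0.308 (control 042301), 0.206 (CKD 110310) and 0.395 (CKD+Fe 042702).

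Gstm2 was at 93.8, 79.9, 90.7 and 94.7 FPKM in CKD+Fe mice, all above the highest CKD mouse at 76.7 FPKM. Gstm1 and Gstm2 were the 2 transferases whose CKD+Fe and CKD mice were fully separate in this direction, as were 1.35% of all genes, and none was separate in the other direction, as were 1.09%. The log2 fold change of Gstm2 was 0.43 (95% interval -0.42 to 1.29, adjusted p = 0.964, limma; exact permutation p = 0.0286). The fit shares its estimate of spread with the control group, in which 1 mouse was high. In the fit of the 2 groups alone Gstm2 was also not called. No gene at all was called higher in that fit, so it cannot show what the high control mouse did to this test.

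**Figure D3:**
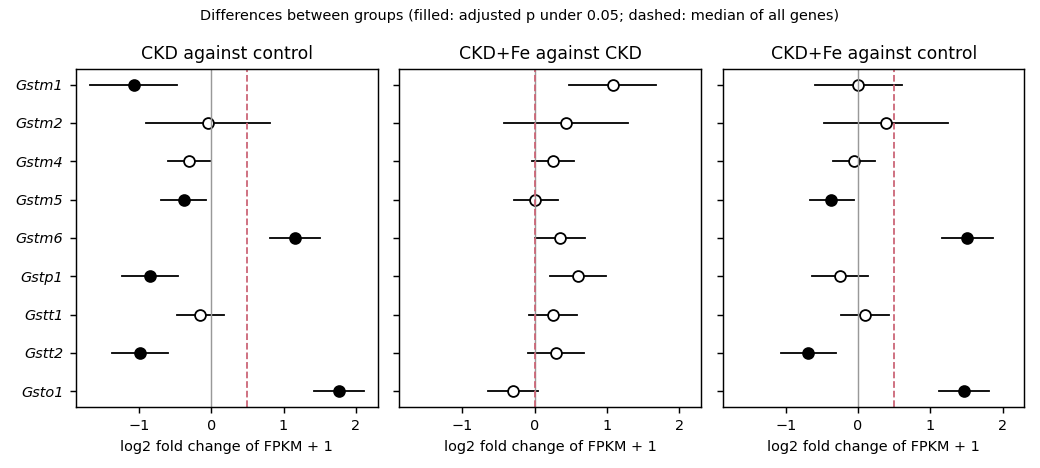
Log2 fold change of FPKM + 1 (x axis) of the 9 transferases (y axis) in the 3 comparisons, with 95% intervals from limma. Filled points passed an adjusted p of 0.05, and the dashed line is the median of all 13148 genes. In the middle panel no point is filled and 8 of 9 lie to the right of 0.

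The other genes showed smaller differences with iron. Gstm6 was at 7.08, 7.58, 6.49 and 6.06 FPKM in CKD+Fe mice, overlapping the CKD mice, with a log2 fold change of 0.35 (adjusted p = 0.832). The interval of Gstm5, from -0.29 to 0.32 around 0.01, leaves no room for a change as large as the 1.08 of Gstm1, and its sign turned in 3 alternatives. Gstt1 (165 to 215 FPKM in CKD+Fe mice), Gstt2 (74.6 to 141 FPKM) and Gstm4 (11.2 to 14.2 FPKM) had log2 fold changes of 0.25, 0.30 and 0.25, with intervals that include 0. Gsto1 was at 131, 109.7, 113 and 131 FPKM, within the lower part of the CKD range or below it, with a log2 fold change of -0.30 (95% interval -0.65 to 0.04, adjusted p = 0.876, limma).

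Markers of several cell types had log2 fold changes mostly of the same sign between CKD+Fe and CKD mice, while their sums overlapped. All 19 proximal tubule genes had a positive log2 fold change with iron, as had 49.9% of all genes. Of the 19, 5 were at an unadjusted p under 0.05, a level at which 3.28% of all genes were higher. None was called, and only Slc22a8 and Slc22a12 were separate between the groups. All 6 tubule injury genes had a negative log2 fold change, 4 of them at an unadjusted p under 0.05, where 2.73% of all genes were lower. None of the 6 was called or separate between the groups. All 7 urothelial genes tested (median log2 fold change 0.63) and all 6 collecting duct genes (median 0.52) were positive, beside a median of 0.48 for the proximal tubule genes, and their sums overlapped between the groups, at 29.2 to 52.6 FPKM in CKD+Fe and 6.59 to 56.4 FPKM in CKD mice for the urothelial genes. Of 6 myofibroblast genes 1 was positive (median -0.50), and of 12 macrophage genes 4 were. None of these was called. The part of these cells in the transferase values was not tested.

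The ratio of Gstm1 to the other mu genes of the same mouse fell in CKD and was higher after iron than in untreated CKD mice. The ratio of Gstm1 to Gstm2 ran from 5.61 to 11.7 in control mice, from 3.997 to 5.41 in CKD mice and from 6.43 to 7.88 in CKD+Fe mice. The ratio to Gstm5 was 2.22 to 4.90 in control mice, 1.51 to 1.99 in CKD mice and 2.47 to 4.43 in CKD+Fe mice. The ratio to Gstm6 was 292 to 553 in control mice, 58.1 to 64.2 in CKD mice and 67.8 to 111 in CKD+Fe mice. CKD+Fe mice thus stayed below every control mouse in this ratio, and also in the ratio to Gsto1 (4.69 to 6.31 against 11.2 to 24.7). CKD mice did not overlap with either of the other groups in the ratios of Gstm1 to Gstm2, Gstm4, Gstm5, Gstm6, Gstt1 and Gsto1 (exact two-sided permutation p = 0.0286 for each). These are among 36 pairs of members, of which 23 were separate between CKD and control and 9 between CKD+Fe and CKD mice. The ratio of Gstm1 to any other gene separated CKD from control mice for 68% of genes, CKD+Fe from CKD mice for 63.8%, and for 34.6% it separated CKD+Fe from control mice, so this separation was not particular to its relatives. The ratio of Gstm1 to Gstp1 overlapped between groups in both comparisons, at 3.18 to 7.53 in control mice, 3.45 to 4.62 in CKD mice and 4.40 to 6.19 in CKD+Fe mice. The ratio of Gstt1 to Gstt2 stayed at 1.47 to 2.21 in CKD+Fe mice, overlapping CKD (exact permutation p = 0.8) and above control mice, and the ratio of Gstt1 to another gene separated these pairs of groups for 2.92% and 47.2% of genes.

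**Figure D4:**
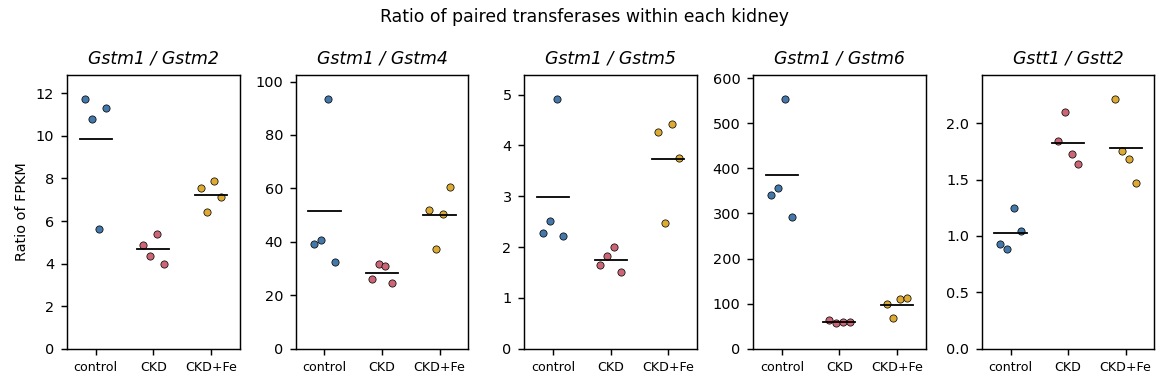
Ratio of FPKM (y axis from 0) of Gstm1 to 4 other mu genes and of Gstt1 to Gstt2 in each mouse of the 3 groups (x axis), with a line at the group mean. CKD mice lie below both other groups in the first 4 panels, and in the last panel both adenine-fed groups lie above control mice.

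CKD+Fe was compared with control to see how far the iron-treated mice were from healthy ones. It shares its mice with the comparisons above, so its values are not independent of theirs. Gsto1 (1.46, adjusted p = 8.09e-06) and Gstm6 (1.51, adjusted p = 7.6e-06) were higher, and Gstt2 (-0.69, adjusted p = 0.0042) and Gstm5 (-0.37, adjusted p = 0.0363) were lower, by log2 fold change with limma. The Gstm5 call was lost in 6 of 8 fits with a single mouse removed, those without control mouse 012811, 012822 or 042301 or CKD+Fe mouse 042702, 111710 or 122320, and its value was -0.04 with quantile normalization (adjusted p = 0.777) and -0.93 after median-of-ratios rescaling. Gstt2 was at -0.47 with quantile normalization, where its call was lost (adjusted p = 0.0516), and at -1.25 after median-of-ratios rescaling. Of all genes 54.4% were called higher and 11% lower in this comparison. Every CKD+Fe mouse lay above every control mouse for Gsto1 and Gstm6 and below for Gstt2, as was the case for 50.4% and 9.85% of all genes. Gstm1 had a log2 fold change of 0.00 (95% interval -0.60 to 0.61), and Gstp1 one of -0.25 (95% interval -0.64 to 0.14), at 124.7 ± 15.9 FPKM in CKD+Fe mice (SD, n = 4). These intervals do not show that the levels were the same as in control mice. After median-of-ratios rescaling Gstp1 was called lower, at -0.82 (adjusted p = 0.00272), as were Gstm4 at -0.59 (adjusted p = 0.00339) and Gstt1 at -0.47 (adjusted p = 0.0258). With quantile normalization Gstp1 was at -0.03 (adjusted p = 0.881), Gstm4 was called lower at -0.55 (adjusted p = 0.00904) and Gstt1 was called higher at 0.38 (adjusted p = 0.0181), and with array weights Gstp1 was called lower at -0.28 (adjusted p = 0.0469). Gstm2 was at 0.39 with all mice (adjusted p = 0.407) and at 0.94 without control mouse 042301 (adjusted p = 0.000297).

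The rest of the soluble transferase family was measured as well. Of 11 further genes 10 were found and 7 passed the filter, of which 2 rose and 2 fell in CKD, where 54.6% of all genes rose and 13.3% fell. Hpgds, the sigma class enzyme that makes prostaglandin D in mast cells and macrophages, rose from 0.550 ± 0.155 to 7.41 ± 3.56 FPKM (SD, n = 4; log2 fold change 2.35, adjusted p = 1.32e-05, limma), while the summed macrophage genes rose as given above, and their part in this value was not tested. Gstz1, the zeta enzyme of tyrosine breakdown, fell from 233 ± 39.6 to 75.5 ± 15.0 FPKM (-1.62, adjusted p = 1.23e-05), and Gstk1, the kappa enzyme of mitochondria and peroxisomes, had a log2 fold change of -1.10. With iron none of the 7 was called, and 2 were higher at an unadjusted p under 0.05, Gstk1 (0.39) and Gstz1 (0.48). At that level 3.28% of all genes were higher, and both Gstk1 and Gstz1 overlapped between the groups.

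Most of the genes that supply glutathione and handle its conjugates fell in CKD. Of 24 tested, 16 fell and 6 rose, with a median log2 fold change of -0.97, where 13.3% of all genes fell and 54.6% rose, with a median of 0.50. Acy3, which removes the acetyl group of mercapturic acids, fell from 2049 ± 235 to 215 ± 153 FPKM (SD, n = 4; log2 fold change -3.53, adjusted p = 2.86e-05, limma). Ggt1, the brush border enzyme that takes the glutamyl group off conjugates, fell from 1103 ± 191 to 230.0 ± 92.0 FPKM (-2.33, adjusted p = 1.95e-05). Abcc3, a basolateral exporter of conjugates, rose from 0.673 ± 0.222 to 13.9 ± 3.63 FPKM (3.13, adjusted p = 6.62e-07). With iron none of the 24 was called and 20 were positive, as were 49.9% of all genes, and Abcc2, the apical exporter, had a mean of 26.9 ± 9.92 FPKM in CKD mice and 55.8 ± 17.6 FPKM with iron (SD, n = 4; 1.05, unadjusted p = 0.00209, adjusted p = 0.4).

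Of 18 genes known as Nrf2 targets, 7 rose and 5 fell in CKD, with a median log2 fold change of -0.04, beside 54.6% higher, 13.3% lower and a median of 0.50 over all genes. Cbr3, a carbonyl reductase, rose (2.16, adjusted p = 4.6e-06), whereas Me1, which makes NADPH, and Gclm, a subunit of the first enzyme of glutathione synthesis, fell (-2.24 and -1.64). With iron 16 of the 18 were positive (49.9% of all genes), and none was called by limma. Of the 16, 4 were at an unadjusted p under 0.05, where 3.28% of all genes were higher. Gclc, Gclm, Gsr, Slc7a11 and Abcc1 also belong to the genes of glutathione supply and conjugates above, so these lists are not independent. Nqo1, a quinone reductase, was at 60.4, 39.6, 35.8 and 55.8 FPKM in CKD mice and at 70.1, 83.3, 135 and 169 FPKM in CKD+Fe mice, with no overlap (1.18, unadjusted p = 0.000353, adjusted p = 0.254).

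Across the 12 mice, the genes whose pattern lay nearest to that of each transferase were found by the root mean square difference of log2(FPKM + 1) after centring, among 13132 genes. The nearest gene to Gstm1 was Ndufs7 at 0.31, where Gstm1 itself varied by 0.64 around its mean. For Gstm2 it was Epor (0.17), for Gstp1 Mrpl2 (0.17), for Gstt2 Pxmp4 (0.14), for Gsto1 Tmem43 (0.13) and for Gstm6 Tle6 (0.16). Control mouse 042301 weighs heavily in the pattern of Gstm2, at 219 FPKM where all other mice were at 36.5 to 94.7 FPKM. Gstm4 (Mrpl48, 0.11), Gstm5 (Mrpl18, 0.08) and Gstt1 (Ptrhd1, 0.10) varied so little themselves, by 0.19 to 0.24, that such small distances carry little weight. Between members, Gstm1 lay nearest to Gstp1 (0.37) and farthest from Gsto1 (1.23), and Gsto1 lay nearest to Gstm6 (0.42). Of the 27 nearest genes, 3 for each transferase, 22 were the same after median-of-ratios rescaling, 21 with a pseudocount of 0.1 and 1 with quantile normalization, and with that pseudocount none of the 3 nearest to Gstm6 was the same.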

How the data were processed

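Whole kidney libraries (TruSeq stranded mRNA, single-end, 50 cycles) were aligned by the authors with STAR 2.5.2. The submitters' processing notes also name bcl2fastq 2.19, Cufflinks 2.1.1 and GRCm38. The authors deposited FPKM per gene and mouse, in 22053 rows. The authors tested read counts with DESeq2. Counts were not used here. The status column marked 30 values in 17 genes as failed, and these were treated as missing. No transferase was affected. The deposited FPKM are relative to the total of each mouse, and depth in reads is unknown.

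Groups were taken from the labels. Values were analysed as log2(FPKM + 1), with a pseudocount of 1, in limma 3.58.1 (R 4.3.3), fitting all 12 mice together with a variance trend. Genes needed 1 FPKM or more in at least 4 mice. Two-sided P values were Benjamini-Hochberg adjusted over 13148 genes (threshold 0.05). Exact permutation tests used all 70 arrangements of 4 mice against 4, in 27 tests of single genes and 36 ratios in each of 3 comparisons, and were not adjusted. The labels do not say whether mice were littermates or share a batch. The fit was tested on simulated data. GENCODE M21 transcripts gave shared 50-base stretches and coding identity (Biopython 1.88), and RefSeq gave promoters for 8 of the 9 genes.

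The transferases, gene lists and alternatives were chosen with earlier results of these data known. All 9 transferases were named, and from each further list the genes with the largest changes. Alternatives were a pseudocount of 0.1, no filter, a mean of at least 5 FPKM, quantile normalization, median-of-ratios rescaling, a fit of only the groups compared, array weights, no variance trend, a threshold of 0.5, each mouse left out in turn, and 3 mice left out together. Adipocyte and adrenal cortex lists had 0 genes past the filter, which asks for 4 mice and so does not show tissue in single kidneys. The adipocyte genes summed to 135 FPKM in CKD+Fe mouse 122320 and 18.6 FPKM in CKD+Fe mouse 111710. They summed to 15.9 FPKM in control mouse 012822 and to 0.489 to 1.70 FPKM in the other mice. The part of fat tissue in the transferase values was not tested. Thick ascending limb, podocyte, urothelial and myofibroblast lists of 5, 5, 7 and 6 tested genes had 1, 2, 0 and 6 genes higher and 1, 0, 0 and 0 lower in CKD, and the collecting duct list of 6 had 0 higher and 2 lower.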

Additional observations from a re-analysis of the deposited data

Results flagged for a closer look

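Of 27 sets of 4 mice (9 transferases in 3 groups), 2 held a mouse whose gap to its nearest neighbour exceeded Dixon's critical value at the 95% level, and chance flags about 1 in 20 groups. Gstm2 was at 219.397 FPKM in control mouse 042301, against 36.5 to 58.5 FPKM in the other control mice. Gstt2 was at 106.23 FPKM in CKD mouse 110310, against 80.0 to 83.6 FPKM in the other CKD mice.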

How the results depend on the processing

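The calls of Gstm1, Gstp1, Gstt2 and Gsto1 in CKD held under all 17 alternatives, and no alternative reversed a called transferase other than Gstm5. The number of transferases called in CKD changed from 2 higher to 1 with a mean of at least 5 FPKM, which leaves out Gstm6, and to 1 with quantile normalization, and was 3 without control mouse 042301 or the 3 mice. The 4 called lower became 6 after median-of-ratios rescaling and at an adjusted p under 0.5, 5 with no filter, a mean of at least 5 FPKM, array weights or without the 3 mice, 3 with only the groups compared, and 3 to 5 with each mouse left out. For iron against CKD alone the number called changed from 0 higher to 2 with array weights, 2 without the 3 mice and 2 at an adjusted p under 0.5. Between CKD+Fe and control mice, 1 was higher with a mean of at least 5 FPKM, and in place of 2 lower there were 5 after median-of-ratios rescaling, 1 with quantile normalization, 1 without the 3 mice, and 1 to 2 with each mouse left out. That count was 1 without control mouse 012811, 012822 or 042301 or CKD+Fe mouse 042702, 111710 or 122320. The cause of these moves was not tested.

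Signs turned only for log2 fold changes that were not called with all mice, apart from Gstm5. In CKD against control mice Gstm2 ran from -0.34 to 0.51 with each mouse left out, and was at 0.01 with quantile normalization, 0.26 with array weights, 0.44 without the 3 mice, 0.51 without control mouse 042301, and 0.01 and 0.00 without CKD mice 021320 and 120102. Gstm5 was at 0.02 and Gstt1 at 0.21 with quantile normalization. In CKD+Fe against CKD mice Gstm5 ran from -0.06 to 0.09 with each mouse left out, and was at -0.07 with quantile normalization and at -0.04 and -0.06 without CKD mouse 120102 and CKD+Fe mouse 062910. In CKD+Fe against control mice median-of-ratios rescaling gave -0.56 for Gstm1, -0.18 for Gstm2 and -0.47 for Gstt1, Gstm1 ran from -0.21 to 0.31 with each mouse left out, above 0 without control mouse 042301 or CKD+Fe mouse 062910 and below 0 in the other 6 fits, and Gstm4 ran from -0.10 to 0.01, the latter without CKD+Fe mouse 122320.

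Over all genes, CKD had 7181 higher and 1748 lower, which became 3781 and 3856 after median-of-ratios rescaling and 3060 and 3363 with quantile normalization, and 2681 were lower at an adjusted p under 0.5. Between CKD+Fe and control mice 7159 higher and 1442 lower became 3636 and 3618, and 2605 and 2967, under the same scalings, with 4749 higher at a mean of at least 5 FPKM and 2388 lower at an adjusted p under 0.5. With iron against CKD alone 1 gene was higher and 0 lower. There were 0 higher with a pseudocount of 0.1, without the filter or with only the groups compared, 79 with array weights, 51 without the 3 mice, 92 at an adjusted p under 0.5, and 0 to 9 with each mouse left out. There were 56 lower with array weights, 33 without the 3 mice, 72 at an adjusted p under 0.5, 1 without a variance trend, and 0 to 4 with each mouse left out. Of the 27 genes nearest to a transferase, 1 remained with quantile normalization. No paired analysis was possible because the groups share no mouse numbers. The small groups, unknown read depth and reads shared between copies limit what small differences can show.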
